A study of Mus musculus with 4 samples.

Results

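PPAR alpha, the product of Ppara, is a nuclear receptor of hepatocytes, and it was examined here with 6 of its best-known target genes in the livers of mice with diet-induced steatohepatitis. The genes were chosen by symbol: Ppara, Cpt1a, Ehhadh, Pdk4, Acot1, Vnn1 and Fgf21. All 7 were found among the 24138 rows of the expression table, with 1 row each, and the mean of all 7 reached 1 FPKM (fragments per kilobase of transcript and per mapped library size), as did that of 10541 rows in all, called expressed genes. The table covers bulk RNA sequencing of 4 livers from male C57BL/6J mice aged 18 weeks. Every animal had received both the FAT-MASH diet, which gives rise to metabolic dysfunction-associated steatohepatitis (MASH), and resolvin D1 (RvD1), a lipid mediator of the resolution of inflammation. The livers form a single group (n = 4, called livers 1 to 4 after the labels), and livers on the diet alone, livers given vehicle and healthy livers were not analysed here. The values therefore give levels and differences between livers, and say nothing of what RvD1 or the diet changed.

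PPAR alpha binds fatty acids and their derivatives, pairs with a retinoid X receptor (RXR) and acts on genes that carry a direct repeat of the AGGTCA half-site. In liver it is known for driving the response to fasting: fatty acid uptake, mitochondrial and peroxisomal oxidation, ketone body formation and release of the hormone FGF21. Several of these targets also answer to other signals, such as insulin, glucocorticoids and amino acid shortage.

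The 4 libraries had summed values between 516816 and 570681 FPKM, the highest in liver 4. Their depth was put at 18.8 to 20.1 M fragments (M, mega), an estimate that a preset window of the method bounds. The tissue was checked against marker genes. Of the hepatocyte markers Ttr, Apoa1, Fgb and Cps1 were high in all 4 livers, whereas Alb and Trf were listed at 0 in all of them and Serpina1a at 0 in livers 3 and 4. These are genes that hepatocytes use, so a 0 in the table can be a failed estimate. No member of the set was listed at 0. Of 5 adipocyte markers, Lep, Plin1 and Retn were listed at 0 in every liver and Adipoq did not exceed 0.0528 FPKM, while the 5 markers summed to between 0.609 and 4.49 FPKM, nearly all of it Cfd. Of 4 striated muscle markers none reached a mean of 1 FPKM, and Myh1 was listed at 0 throughout. In bulk tissue, fewer cells of a type and less RNA per cell cannot be told apart.

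The receptor itself was abundant and even. Ppara (XLOC_007157, chromosome 15, 85735564 to 85806851, plus strand, 8 exons) had 61.9, 55.7, 58.1 and 66.8 FPKM in livers 1 to 4. The values lay close together, with liver 4 highest and liver 2 lowest. The mean was 60.6 ± 4.83 FPKM (SD, n = 4), above 88.7% of expressed genes, and the highest liver was 1.20 times the lowest. Its SD of log2(FPKM + 1), called the log2 SD below, was 0.11, the smallest of the set and below the median of 0.16 over expressed genes.

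Among the other receptors of the family, Pparg, the adipocyte-type receptor that is also induced in fatty liver, had 15.2, 22.2, 21.7 and 25.8 FPKM, and liver 1 was lowest. Ppard, the more widely expressed form, had 5.88 FPKM in liver 3 and 2.65 to 2.96 FPKM in the other livers. Rxra, the main RXR of hepatocytes, had the highest mean of these receptors (101 ± 11.0 FPKM, SD, n = 4), followed by Ppara, Pparg, Rxrb (10.2 ± 2.00 FPKM), Ppard (3.55 ± 1.56 FPKM) and Rxrg (2.56 ± 0.540 FPKM).

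Cpt1a and Ehhadh, which encode enzymes of fatty acid oxidation, were the most abundant members. Cpt1a (XLOC_010243, chromosome 19, 3323301 to 3385733, plus strand, 19 exons) encodes carnitine palmitoyltransferase 1A, the rate-controlling step for entry of long-chain fatty acids into mitochondria. It had 209, 197, 226 and 264 FPKM in livers 1 to 4, a mean of 224 ± 29.2 FPKM (SD, n = 4). Liver 4 was highest and liver 2 lowest, as for Ppara.

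Ehhadh (XLOC_008231, chromosome 16, 21761285 to 21787834, minus strand, 7 exons) encodes the bifunctional enzyme of peroxisomal beta-oxidation. Its levels were 184, 132, 162 and 152 FPKM, with a mean of 157 ± 21.7 FPKM (SD, n = 4). Unlike Cpt1a it was highest in liver 1, and liver 2 was again lowest. The highest liver was 1.34 times the lowest for Cpt1a and 1.39 times for Ehhadh, close to the median of 1.34 over expressed genes.

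Pdk4 was the lowest and the most variable member. It encodes pyruvate dehydrogenase kinase 4, which switches off the entry of pyruvate into the citric acid cycle when fat is burned (XLOC_017681, chromosome 6, 5483351 to 5496278, minus strand, 11 exons). It had 3.73, 5.66, 3.36 and 1.58 FPKM in livers 1 to 4, a mean of 3.58 ± 1.67 FPKM (SD, n = 4). Livers 1 and 3 were alike, liver 2 lay above them and liver 4 below them.

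Liver 2 had 3.57 times the Pdk4 level of liver 4, and the SD of log2(FPKM + 1), 0.56, exceeded that of 99.0% of expressed genes. The width of this range rested on both end livers, since it fell to 2.35 times without liver 2 and to 1.68 times without liver 4. At the estimated depth the lowest value corresponds to about 98 fragments, with a counting error of about 10.1%. Variation from library preparation was not measured, so how much of the range lies between animals cannot be told.

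The other kinases of pyruvate dehydrogenase differed in level and not in the same order of livers. Pdk2, the main isoform of liver, had 67.9, 70.9, 84.9 and 79.7 FPKM, so that Pdk4 was far below it in every liver. Pdk1 had 25.3 ± 3.11 FPKM (SD, n = 4) and was highest in liver 4. Pdk3 had a mean of 0.632 ± 0.120 FPKM (SD, n = 4), below the expression minimum.

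Acot1 encodes a cytosolic thioesterase that splits long-chain acyl-CoA into free fatty acid and coenzyme A (XLOC_004491, chromosome 12, 84009502 to 84017669, plus strand, 3 exons). It had 17.6, 20.4, 16.3 and 25.5 FPKM in livers 1 to 4, a mean of 19.9 ± 4.11 FPKM (SD, n = 4). Liver 4 was highest and liver 3 lowest, 1.57-fold apart. Acot1 lies in a cluster of near-copies, and its value depends on how reads were divided among them. Of all 50-base stretches of its transcript, 33.0% also occur in the transcript of another gene, against 1.43% for Pdk4 and 0 for the other 5 members. Acot2, which encodes the mitochondrial form, alone shares 23.7%, and its coding sequence is 95.3% identical to that of Acot1 over 1236 aligned bases. The first 120 coding bases of Acot1 and the stretch of Acot2 that aligns with them (coding bases 124 to 243) are shown because they make this likeness visible. The capitals mark the 13 bases that differ, and the sequences are from GENCODE M21 transcripts, 5′ to 3′.
Acot1: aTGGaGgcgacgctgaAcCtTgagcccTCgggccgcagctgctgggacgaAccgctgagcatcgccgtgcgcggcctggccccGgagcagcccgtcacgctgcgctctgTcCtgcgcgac
Acot2: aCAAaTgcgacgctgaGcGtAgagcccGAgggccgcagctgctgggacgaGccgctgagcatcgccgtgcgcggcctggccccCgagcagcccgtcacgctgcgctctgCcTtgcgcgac

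The 4 expressed genes of this cluster were all lowest in liver 3, against 31.4% of expressed genes, and had their higher values in livers 2 and 4. Acot2 had 7.69, 10.5, 6.86 and 11.5 FPKM in livers 1 to 4. Acot4, a peroxisomal form, had 14.7, 22.4, 13.5 and 21.9 FPKM. Acot3, another peroxisomal form, had 6.42, 15.3, 4.46 and 19.5 FPKM, and its range of 4.38-fold was wider than that of any of the 7 members. Coding identity with Acot1 was 83.9% for Acot3 and 74.6% for Acot4. The part of shared reads in the common pattern was not tested. Acot6 stayed below 1 FPKM in every liver, and Acot5 was listed at 0.124 FPKM in liver 3 and at 0 in the others.

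Vnn1 encodes vanin-1, a membrane-bound pantetheinase that releases cysteamine and pantothenate, the precursor of coenzyme A (XLOC_001389, chromosome 10, 23894688 to 23905343, plus strand, 7 exons). Its levels were 45.2, 44.4, 28.3 and 52.7 FPKM, with a mean of 42.7 ± 10.3 FPKM (SD, n = 4). Livers 1, 2 and 4 were alike and liver 3 was lower. The SD of log2(FPKM + 1) was 0.38, above that of 95.8% of expressed genes. The neighbouring paralogue Vnn3 did not show the low value of liver 3: it had 39.7, 42.7, 40.9 and 48.7 FPKM, and a mean (43.0 ± 3.99 FPKM, SD, n = 4) close to that of Vnn1.

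Fgf21 encodes the hormone through which the fasted or stressed liver acts on adipose tissue and brain (XLOC_019817, chromosome 7, 45613890 to 45615490, minus strand, 3 exons). It had 6.12, 5.61, 8.61 and 4.73 FPKM in livers 1 to 4, a mean of 6.27 ± 1.66 FPKM (SD, n = 4), and was highest in liver 3 and lowest in liver 4. The SD of log2(FPKM + 1), 0.31, exceeded that of 91.7% of expressed genes. Fgf21 is short, and at the estimated depth its lowest value stands for about 67 fragments, with a counting error of about 12.2%.

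The promoter of Fgf21 is shown because it carries letters recognised by factors other than PPAR alpha. RefSeq promoter windows (GRCm38.p6, 250 bases before to 50 after the start) were found for 6 of the 7 members, all but Vnn1. Both strands were searched for direct repeat 1, which is AGGTCA, any base and AGGTCA again, the element bound by PPAR alpha with RXR. With at most 2 mismatches it was in 0 of the 6 windows and in 3.86% of 32851 windows of all genes. The closest stretch had 4 mismatches in each of the 6, and 79.8% of all windows held one at least as close. No match says only that these letters are not in this window. TTGCATCA, the composite site of C/EBP and ATF factors such as ATF4, and CACGTG, the core of E-boxes and carbohydrate response elements, were searched after the sequence had been read. Each occurred in the Fgf21 window and in no other of the 6, against 0.895% and 7.15% of all windows. A match is a description and not proof of a bound site. The capitals mark TTGCATCA, at 139 to 132 bases before the start, and CACGTG, at 50 to 45 bases before it, which do not overlap. The 250 bases before the start are chr7:45615491-45615740, minus strand, 5′ to 3′.
Fgf21: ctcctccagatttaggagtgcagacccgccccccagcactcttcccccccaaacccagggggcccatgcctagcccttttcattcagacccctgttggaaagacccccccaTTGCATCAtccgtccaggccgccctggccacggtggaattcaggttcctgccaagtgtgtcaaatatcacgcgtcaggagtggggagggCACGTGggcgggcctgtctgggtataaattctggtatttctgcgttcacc

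Of the receptor complex for FGF21, Klb, which encodes the co-receptor beta-klotho, had 7.74 ± 1.00 FPKM (SD, n = 4), and Fgfr1 3.99 ± 0.412 FPKM. Fgfr4, at 13.9 ± 0.778 FPKM, and Fgfr3, at 13.8 ± 2.94 FPKM (each SD, n = 4), had the highest means of the receptors and did not differ beyond their spread. Fgf21 had the largest log2 SD among the 6 genes of this list.

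**Figure D1:**
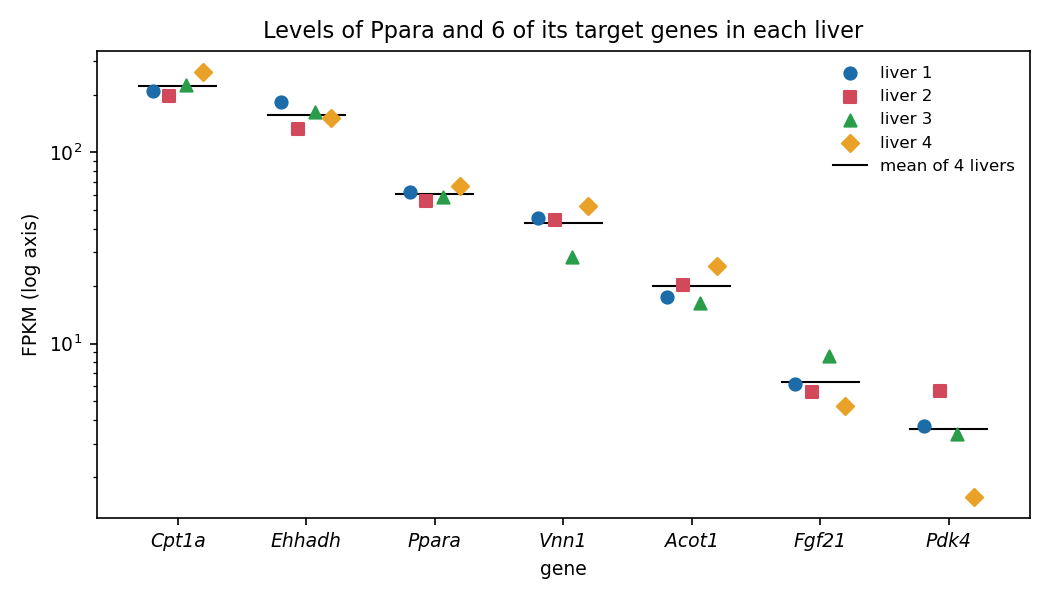
FPKM of Ppara and 6 target genes (log axis) in each of the 4 livers, with points for single livers and bars for the mean. Cpt1a and Ehhadh lie above 130 FPKM in all livers, and only Fgf21 and Pdk4 overlap as neighbours.

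In order of mean FPKM the genes ran Cpt1a, Ehhadh, Ppara, Vnn1, Acot1, Fgf21 and Pdk4. Neighbours were called separate where the lowest liver of the higher gene lay above the highest liver of the lower gene, and 5 of the 6 pairs of neighbours were. The margins were small for Cpt1a over Ehhadh (197 against 184 FPKM), for Ppara over Vnn1 (55.7 against 52.7 FPKM) and for Vnn1 over Acot1 (28.3 against 25.5 FPKM). Fgf21 and Pdk4 were not separate: Fgf21 was 2.99 times Pdk4 in liver 4 and 0.991 times in liver 2. With 4 livers an exact paired permutation test between genes cannot give a two-sided p below 0.125, so none was run.

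The ratio of each target to Ppara within a liver does not depend on how the libraries are scaled. Cpt1a was 3.37, 3.53, 3.90 and 3.95 times Ppara in livers 1 to 4, the steadiest ratio of the 6, with a 1.17-fold range. Ehhadh was 2.97, 2.37, 2.79 and 2.27 times Ppara, a 1.31-fold range. The ratio of Acot1 to Ppara had a 1.37-fold range, that of Vnn1 1.64-fold, that of Fgf21 2.09-fold and that of Pdk4 4.28-fold. The 2 targets at the lower end of expression thus varied most against their receptor's transcript.

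**Figure D2:**
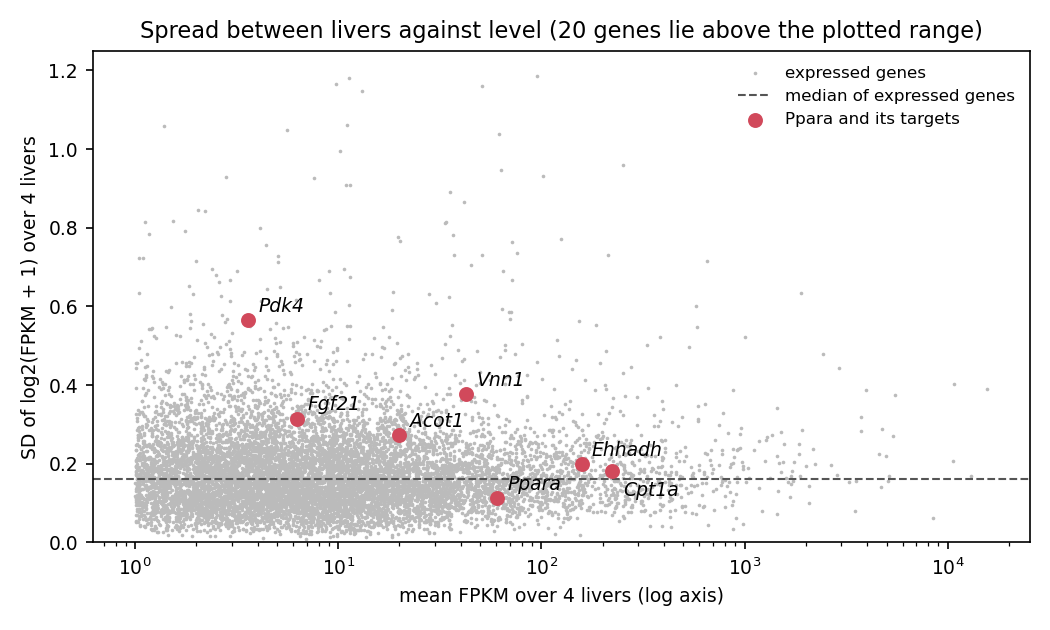
SD of log2(FPKM + 1) over the 4 livers against mean FPKM (log axis) for 10541 expressed genes (grey) and for Ppara and its targets (red), with the median of expressed genes as a dashed line. Ppara lies below the median of 0.16, the other 6 genes lie above it, and 20 genes lie above the plotted range.

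As a group the 7 genes had a median SD of 0.27, against 0.16 for expressed genes, and 6 of 7 lay above that median. The number above it was 5 with median-ratio scaling, equal sums, a pseudocount of 0.1 or any 1 liver left out. The highest liver was at least 1.5 times the lowest in 4 of 7 members (Pdk4, Vnn1, Fgf21 and Acot1), against 28.4% of expressed genes, and at least 2 times in 1 of 7 (Pdk4), against 6.54%. With equal sums Acot1 fell to 1.42 times and Fgf21 came to 2.01 times. A single liver apart from the other 3 by Dixon's ratio (95% critical value) was found for 0 of 7 members and for 5.46% of expressed genes. When the libraries were scaled to equal sums it was found for Vnn1, whose liver 3 was low.

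The livers did not fall in 1 order over the set. Liver 4 was highest for 4 of 7 members (Ppara, Cpt1a, Acot1 and Vnn1), against 33.3% of expressed genes. Livers 1, 2 and 3 were highest for 1 member each (Ehhadh, Pdk4 and Fgf21), against 17.9%, 22.0% and 26.8% of expressed genes. Liver 1 was lowest for 0 members, against 20.7%. Liver 4 was lowest for Pdk4 and Fgf21 (2 of 7), against 18.1% of expressed genes. Liver 2 was lowest for 3 members, against 29.9%, and liver 3 for 2, against 31.4%. These counts partly follow the scaling, since liver 4 had the largest summed FPKM: with equal sums liver 4 was highest for 3 members, against 15.5% of expressed genes, and Ppara was no longer among them. Pdk4 and Fgf21 were lowest in liver 4 under all 3 scalings, while the share of expressed genes lowest there rose from 18.1% to 24.6% with median-ratio scaling and to 33.0% with equal sums.

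**Figure D3:**
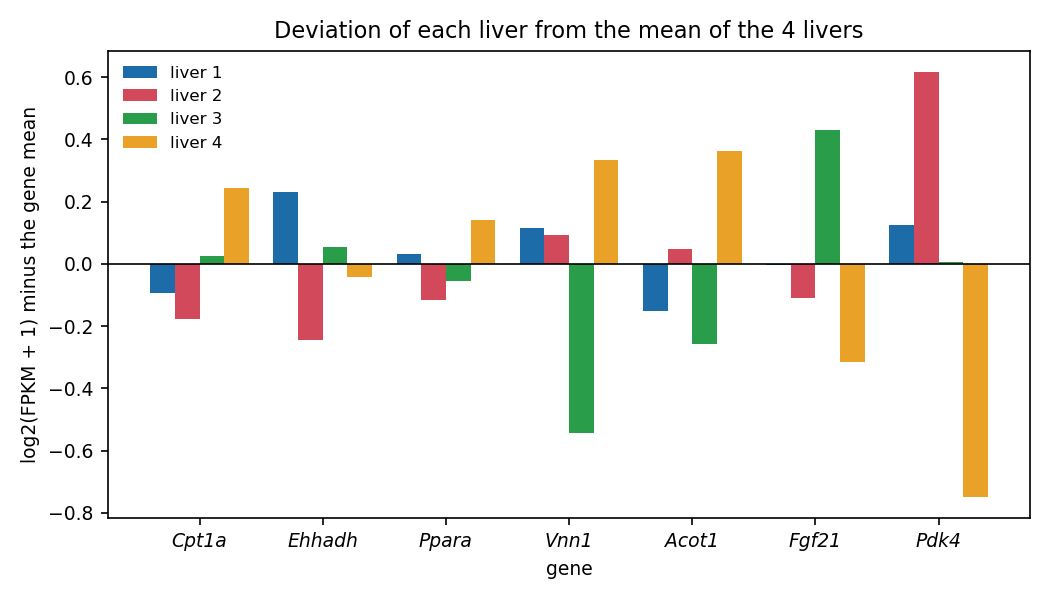
Deviation of log2(FPKM + 1) in each liver (coloured bars) from the gene's mean over the 4 livers. In liver 4 Cpt1a, Ppara, Vnn1 and Acot1 lie above 0 and Pdk4, Fgf21 and Ehhadh below it, with Pdk4 at -0.75 and Ehhadh at -0.04.

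Likeness of pattern was measured as the root mean square difference between the deviations of 2 genes over the 4 livers, since 4 samples are too few for a correlation. Over the 21 pairs of members it ranged from 0.10 for Ppara and Cpt1a to 0.66 for Pdk4 and Vnn1, with a median of 0.35. The measure grows with the spread of both genes, so that 2 even genes are close by construction and Pdk4 is far from every other member. The nearest member to Pdk4 was Fgf21, at 0.48.

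Among 6537 other genes whose mean reached 5 FPKM, the patterns nearest to that of Ppara were those of Cycs (0.01), Rab1 (0.01) and Spg7 (0.01), all with a range as narrow as that of Ppara. Nearest to Pdk4 were Ddit4 (0.05), Lum (0.14) and S100a9 (0.16). Ddit4 had 6.13, 9.93, 5.82 and 2.86 FPKM in livers 1 to 4, again highest in liver 2 and lowest in liver 4.

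The wider pathway was described with 15 lists holding 141 genes with the members, of which 139 were in the table and 131 were expressed. Apart from the members, 124 genes were expressed, with a median SD of 0.20, and 79 of them lay above the median of all expressed genes. Liver 4 was highest for 63 of these 124 (50.8%, against 33.3% of expressed genes). It was highest for 53 with median-ratio scaling, against 23.3%, and for 36 with equal sums, against 15.5%.

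Mitochondrial, peroxisomal and omega-oxidation and ketogenesis held 35 genes apart from the member Ehhadh, which was highest in liver 1 and is not counted here. Liver 4 was highest for 28 of 35 genes (33.3% of expressed genes) and lowest for 0 (18.1%), while liver 3 was lowest for 20 (31.4%). With median-ratio scaling liver 4 was highest for 23 of 35, against 23.3% of expressed genes. With equal sums it was highest for 18 of 35, against 15.5%. It was lowest for 1 under both of these, against 24.6% and 33.0%. Liver 3 was lowest for 20 of 35 under all 3 scalings, against 25.3% to 31.4% of expressed genes. As deposited, the hepatocyte markers also had their largest sum in liver 4, at 24371 FPKM against 19041 to 20838 FPKM. Of 5 expressed markers 3 (Ttr, Apoa1 and Fgb) were highest there, against 33.3% of expressed genes, while Cps1 was highest in liver 3. The sum and the count include Serpina1a, which was listed at 0 in livers 3 and 4. The part of hepatocyte content in the counts of oxidation genes was not tested.

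In mitochondrial beta-oxidation, liver 4 was highest for 12 of 13 genes as deposited, all but Acads, against 33.3% of expressed genes. The count was 10 with median-ratio scaling and 9 with equal sums, against 23.3% and 15.5%. Acaa2, the thiolase of the last step, had the highest mean of the list at 632 ± 80.8 FPKM (SD, n = 4). Acadm, the medium-chain acyl-CoA dehydrogenase, had the largest log2 SD, with 217, 198, 150 and 246 FPKM in livers 1 to 4. Liver 3 was the low one there, as for Vnn1 and Acot1.

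In peroxisomal beta-oxidation, liver 4 was highest for 8 of 12 genes, but not for Ehhadh, against 33.3% of expressed genes. The count was 7 with median-ratio scaling and 5 with equal sums, against 23.3% and 15.5%. Acaa1b, a peroxisomal thiolase, had 1731, 1187, 1340 and 1759 FPKM in livers 1 to 4, the highest mean of the list. Abcd2, a transporter of very long-chain acyl-CoA, had the largest log2 SD and was lowest in liver 3 at 3.94 FPKM. Pex11a, which acts in peroxisome division, was also low in liver 3, at 41.9 FPKM against 58.2 to 61.8 FPKM in the others.

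The ketogenesis genes were highest in liver 4 in 4 of 4 cases, against 33.3% of expressed genes. With equal sums it was 3 of 4, against 15.5%. Acat1, a mitochondrial thiolase, had the largest log2 SD there, from 136 FPKM in liver 3 to 183 FPKM. In omega-oxidation Aldh3a2, a fatty aldehyde dehydrogenase, had the highest mean, 334 ± 36.0 FPKM (SD, n = 4). Of the cytochromes of omega-oxidation, Cyp4a10 had 229 ± 21.3 FPKM and Cyp4a14 51.1 ± 9.87 FPKM (each SD, n = 4). Cyp4a12a, a male-biased gene, had the largest log2 SD of that list, with 87.9 FPKM in liver 2 and 224 FPKM in liver 4. The Cyp4a genes are related copies, and how far they share reads was not tested.

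Around Cpt1a, Cpt2, the inner-membrane counterpart, had 83.2 ± 4.64 FPKM and Slc25a20, the carnitine-acylcarnitine carrier, 79.9 ± 8.40 FPKM (each SD, n = 4). Slc22a5, the carnitine transporter of the plasma membrane, had 7.86, 7.49, 7.11 and 9.74 FPKM in livers 1 to 4. Acacb, which makes the CPT1 inhibitor malonyl-CoA at the mitochondrion, had the largest log2 SD of this list and was lowest in liver 4 (21.6 FPKM, against 29.9 to 33.1 FPKM in the others). Cpt1c, the neuronal isoform, stayed below 1 FPKM, and Cpt1b had no row under that symbol.

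Of the cofactors of PPAR alpha, Creb3l3, which encodes a liver transcription factor that acts with it on Fgf21, had the highest mean (129 ± 14.6 FPKM, SD, n = 4). Lpin1, a phosphatidate phosphatase and coactivator, had the largest log2 SD, with 33.5, 54.3, 44.7 and 16.4 FPKM in livers 1 to 4. Like Pdk4 it was highest in liver 2 and lowest in liver 4. Ppargc1a, the coactivator PGC-1 alpha, had 2.11 ± 0.477 FPKM (SD, n = 4).

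For uptake and activation of fatty acids, Fabp1, the fatty acid binding protein of liver, had the highest mean of the list and was highest in liver 4 (12264 FPKM). Fabp4, the binding protein of adipocytes and macrophages, had the largest log2 SD, with 37.5 FPKM in liver 2 and 11.1 to 18.2 FPKM in the others. Of 4 macrophage markers, Adgre1 and Csf1r were highest in liver 2 and Cd68 and Clec4f in liver 4, and their summed level was 51.2, 62.8, 46.3 and 62.4 FPKM in livers 1 to 4. Of 4 endothelial markers 3 were highest in liver 2 and Clec4g in liver 4, and the sum of all 4 was 36.3, 45, 39.1 and 46.2 FPKM. Of expressed genes, 22% were highest in liver 2 and 33.3% in liver 4. The part of either cell type in the Fabp4 value was not tested. Acot13, a thioesterase of mitochondria, had the highest mean of its list (165 ± 26.2 FPKM, SD, n = 4), and Coasy, which completes coenzyme A, that of the vanin list (102 ± 9.69 FPKM). Pdhb, a subunit of pyruvate dehydrogenase, had 114 ± 8.43 FPKM (SD, n = 4).

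Of the remaining PPAR alpha targets, Angptl4, an inhibitor of lipoprotein lipase, was even, at 61.3 ± 4.79 FPKM (SD, n = 4). G0s2, an inhibitor of the triglyceride lipase ATGL, had the largest log2 SD, with 396 FPKM in liver 3 and 133 to 180 FPKM in the others. Plin5, a lipid droplet protein of oxidative tissue, was likewise highest in liver 3, at 27.6 FPKM against 17.1 to 18.2 FPKM. Apoa5 had the highest mean (752 ± 103 FPKM, SD, n = 4), and Ucp3 was listed at 0 in all 4 livers. Of the 13 expressed genes of this list, livers 1 to 4 were highest for 2, 1, 4 and 6, against 17.9%, 22.0%, 26.8% and 33.3% of expressed genes. With equal sums liver 4 was highest for 3 of them, against 15.5%.

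**Figure D4:**
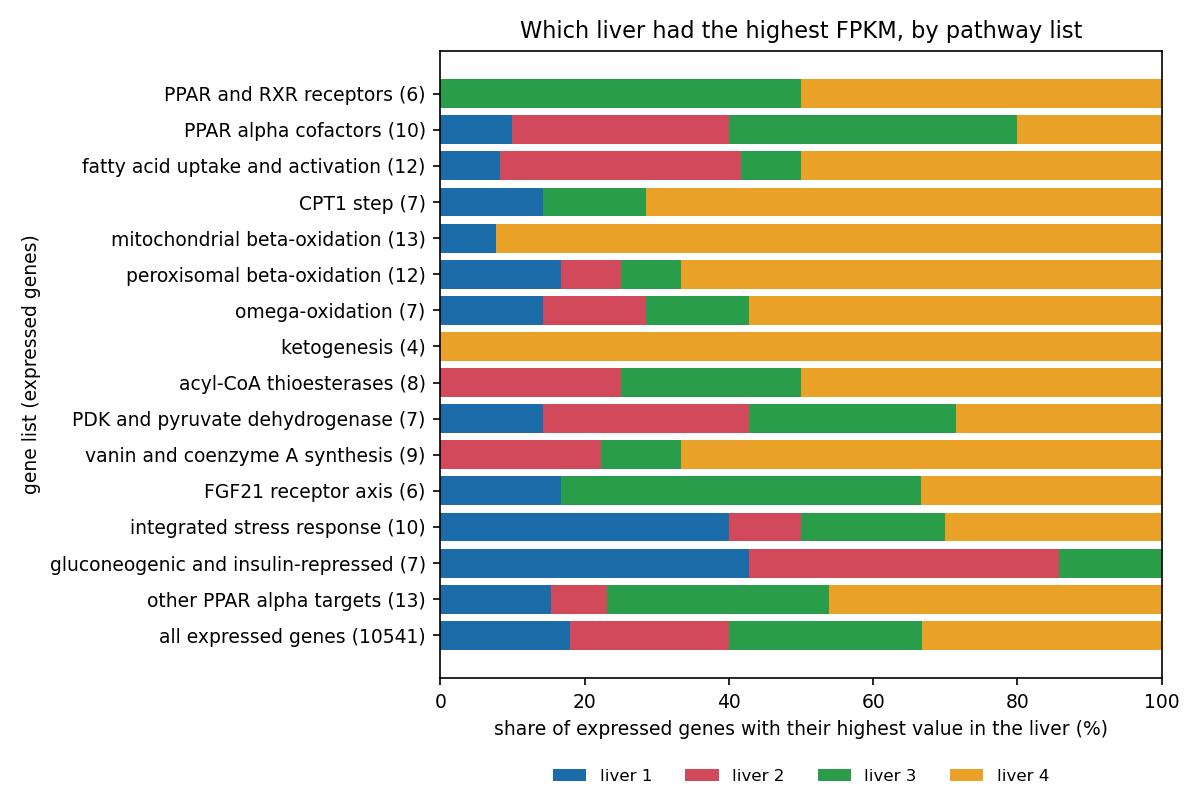
Share of expressed genes (percent) whose highest FPKM was in each liver, for the 15 pathway lists, members included, and for all expressed genes, with the number of genes in brackets. As deposited, liver 4 takes 12 of 13 mitochondrial beta-oxidation genes and 4 of 4 ketogenesis genes, against 33.3% of expressed genes. It takes 0 of 7 gluconeogenic and insulin-repressed genes.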

How the data were processed

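Total RNA from liver was sequenced after poly(A) enrichment, per the labels' protocols. The submitters' processing notes name FastQC 0.10.1, Trim Galore 0.6.3, cutadapt, STAR 2.7.6a, Cufflinks 2.2.1 and the build mm10. The authors' deposited table was read as FPKM, which its header does not name; this rests on non-whole values and Cufflinks-style identifiers. Read strand and annotation are not given in the sources used here. Columns were matched to livers by sample description, with 0 left over, and 1 was added to deposited starts, which count from 0.

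Levels are FPKM per liver with the SD. Spread is the SD of log2(FPKM + 1), which compresses differences of low genes, and expressed means a mean of at least 1 FPKM. The table holds no counts, so depth was estimated from single-transcript genes whose FPKM times length fell in a preset low window. It came to 18.2 to 21.1 M fragments (M for mega) over 3 assumed fragment lengths. The window itself bounds the depth that can come out, so the likeness over lengths is no independent check. Fragment numbers and counting errors rest on this depth and are approximate. Exons, transcripts and shared sequence come from GENCODE M21 (GRCm38) and promoters from RefSeq. Scripts (Python 3.11.15, numpy 2.4.6, Biopython 1.88) were tested on simulated data. With 1 group there was no test between groups. The members and lists were chosen with earlier results of these data known. Genes named from the lists are those with the highest mean, the largest SD of log2(FPKM + 1) or a liver apart by Dixon's ratio, with relatives of the members; Cyp4a10, Cyp4a14, Cpt2, Slc25a20, Slc22a5, Ppargc1a, Angptl4 and the genes of the other observations were added after their values were seen. Alternatives were 2 other scalings, other pseudocounts and minimums, and each liver left out. Protein identity was not computed. Values of 3 listed genes are not reported here, though list counts include them.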

Additional observations from a re-analysis of the deposited data

Results flagged for a closer look

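None of the 7 members had a liver apart from the other 3 in the values as deposited. Of the other genes described, 6 did: the gap of 1 liver to the nearest other, as a share of the range of log2(FPKM + 1), was past Dixon's critical value. Chance alone passes it in about 1 in 20 genes, and 5.46% of expressed genes passed it here. Among the 124 expressed pathway genes other than the members, 5 passed it, including a gene not reported here. That share is no larger than the share of expressed genes. Liver 3 was the one apart, and high, for Ppard (0.871) and Plin5 (0.868), and low for Pex11a (0.848). Liver 4 was apart and high for Bdh1 (0.930), a ketone body dehydrogenase with 159 FPKM against 132 to 134 FPKM, and for the hepatocyte marker Apoa1 (0.870). It was apart and low for the cholangiocyte marker Sox9 (0.841), with 3.37 FPKM against 4.88 to 5.21 FPKM.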

How the results depend on the processing

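The mean level of each member moved by less than its SD under both other scalings. The number of separate neighbours was 5 or 6 of 6 when a liver was left out. With the libraries scaled to equal sums, 1 member (Vnn1) in place of 0 had a liver apart, and the number of the 15 lists with a median SD above that of expressed genes fell from 13 to 8. Leaving out a liver gave 9 to 12 lists, and the members' median SD was 0.22 with equal sums. With equal sums liver 4 was highest for 18 in place of 28 of 35 oxidation genes and for 36 in place of 63 of 124 pathway genes; the alternatives for these counts and for the Pdk4 range were chosen after seeing the data. No paired analysis was possible because there is 1 group and no other group to pair its livers with; the ratios to Ppara within a liver compare genes. Fgf21 and Pdk4 rest on few fragments, and depth is an estimate bounded by the method's preset window.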

Other observations

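Genes of the integrated stress response, a pathway that also acts on Fgf21, were highest in different livers. Livers 1 to 4 were highest for 4, 1, 2 and 3 of the 10 genes, against 17.9%, 22.0%, 26.8% and 33.3% of expressed genes. The 2 highest in liver 3, where Fgf21 was also highest, were Ppp1r15a (3.93, 2.95, 4.51 and 3.30 FPKM in livers 1 to 4) and Eif4ebp1. Atf4, the central factor, had 42.0, 39.5, 44.5 and 48.3 FPKM and was highest in liver 4. Asns and Chac1, targets of ATF4, were also highest in liver 4, at 5.11 and 6.21 FPKM, and Ddit3 and Trib3 in liver 1, at 8.61 and 4.79 FPKM. Eif4ebp1, a brake on translation, had the highest mean of the list (75.9 ± 8.96 FPKM, SD, n = 4). The largest log2 SD was that of Gdf15, a stress hormone, with 13.5, 20.2, 7.68 and 2.86 FPKM. Gdf15 was highest in liver 2 and lowest in liver 4, as was Pdk4.

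Of 7 genes that insulin represses or fasting induces, 3 were highest in liver 1, 3 in liver 2 and 1 in liver 3, against 17.9%, 22.0% and 26.8% of expressed genes. Igfbp1, a binding protein of insulin-like growth factors, had 59.3, 104, 19.6 and 20.1 FPKM in livers 1 to 4, and Irs2, an adaptor of the insulin receptor, 3.95, 3.54, 1.87 and 2.27 FPKM. Pck1, the enzyme that commits carbon to gluconeogenesis, was highest in liver 1 at 1135 FPKM. G6pc, its last step, was instead highest in liver 3 at 242 FPKM. Of the 7 genes of this list, liver 4 was highest for 0 under all 3 scalings, against 33.3% of expressed genes as deposited, 23.3% with median-ratio scaling and 15.5% with equal sums, and liver 2 was lowest for 0, against 29.9%. The labels used here give no feeding state or time of day at collection.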
